A study of Mus musculus with 6 samples.

Results

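The genes described here are 8 parts and partners of the phagocyte NADPH oxidase: Cybb, Cyba, Ncf1, Ncf4, Rac1, Rac2, Hvcn1 and Nox4. They were chosen by symbol from the 39017 gene identifiers of the count table, with earlier results of these data known. All 8 passed the filter on low counts, among 15567 genes tested. The cells were adherent cultures grown from crushed limb bones of wild-type (WT) BALB/c mice, an inbred strain, and labelled as bone marrow macrophages positive for F4/80 and CD169. There were 3 libraries from young mice (3 weeks of age) and 3 from old mice (over 78 weeks), each made from 10000 cells, with no treatment or transgene named for either group. The comparison asks how expression in such cultures differs with the age of the mouse. Whether each library is a separate animal is not stated, so p-values measure only the spread between libraries, which may be technical.

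The phagocyte oxidase passes electrons from NADPH across a membrane to oxygen and so makes superoxide, which phagocytes use against microbes and in signalling. Its catalytic chain, gp91phox (Cybb), is held in the membrane with p22phox (Cyba), and the enzyme is silent until cytosolic subunits, among them p47phox (Ncf1) and p40phox (Ncf4), and a GTP-bound Rac protein join them. Macrophages and neutrophils are the cells best known for it, and loss of a subunit causes chronic granulomatous disease. Nox4 is a related oxidase that works with p22phox but needs no cytosolic subunit, and is known from mesenchymal and endothelial cells rather than phagocytes.

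Cybb and Ncf1 were lower in old than in young libraries, by 1.88-fold and 2.02-fold, and Hvcn1 was 1.49-fold higher. The other 5 genes, Cyba, Ncf4, Rac1, Rac2 and Nox4, did not pass the test. The share of members called was 37.5% (3 of 8), beside 10.5% of all genes tested. As the members were chosen with earlier results of these data known, such shares only describe them. By direction, 2 of 8 members were called lower, where 4.7% of all genes were, and 1 of 8 was called higher, where 5.84% were. The median log2 fold change, old minus young, was -0.21 over the 8 members and -0.01 over all genes tested. Values are CPM, read counts scaled to library size with TMM factors, and a mean ± SD covers the 3 libraries of an age (n = 3). A gene is called at an adjusted p under 0.05 in edgeR's quasi-likelihood test over all genes.

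Total counts were 34391206 to 43367734 per library. Young replicate 3 stood apart on the second principal component, which held 17.65% of the variance, after the first (57.4%), which separated the ages. The 2 surface markers of the labels were present in every library, and Adgre1 (F4/80) and Siglec1 (CD169) were both lower in the old libraries. Connective tissue genes were abundant as well: the summed level of 10 stromal markers, led by Col1a1, was 31140 to 70190 CPM in young libraries, highest in replicate 3, and 22500 to 28710 CPM in old ones. The values below are therefore those of the whole culture, where fewer cells of a type and less RNA per cell cannot be told apart. The fold change and ratios of each member are given with young replicate 3 and without it.

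Promoter sequences are shown for Cybb and Ncf1, so that the members that fell can be read beside their RefSeq start sites. RefSeq's promoter table (GRCm38.p6, the mm10 build) held 4 of the 8 members: Cybb, Cyba, Ncf1 and Nox4. Each window runs from 250 bases before the RefSeq start to 30 bases after it, in the direction of the gene, and capitals mark matches on either strand to GAGGAA, letters at the core of sites bound by PU.1, or to GAAA followed after any 2 bases by GAAA, a spacing bound by interferon regulatory factors and called the paired GAAA motif here. The Cybb window is chrX:9469295-9469574, minus strand, and the Ncf1 window is chr5:134229596-134229875, minus strand. The annotated Cybb gene used for positions spans 9435252 to 9487771, so its window lies within that gene rather than at its outermost start.
Cybb: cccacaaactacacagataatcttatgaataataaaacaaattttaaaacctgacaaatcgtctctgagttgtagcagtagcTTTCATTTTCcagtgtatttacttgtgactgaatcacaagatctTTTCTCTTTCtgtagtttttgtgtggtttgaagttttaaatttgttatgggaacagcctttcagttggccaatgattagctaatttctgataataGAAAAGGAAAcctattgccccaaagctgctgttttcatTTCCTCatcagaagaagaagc
Ncf1: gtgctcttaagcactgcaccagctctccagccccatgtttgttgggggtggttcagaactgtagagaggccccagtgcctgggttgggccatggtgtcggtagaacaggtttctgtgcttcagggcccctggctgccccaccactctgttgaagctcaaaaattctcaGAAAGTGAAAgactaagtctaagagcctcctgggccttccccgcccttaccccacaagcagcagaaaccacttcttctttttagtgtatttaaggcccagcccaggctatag
Cybb held 3 matches to the paired GAAA motif. Those at -168 to -159 and -124 to -115 from the start were on the opposite strand, and that at -29 to -20 on the strand of the gene. It held 1 match to GAGGAA, on the opposite strand at 10 to 15 after the start. Ncf1 held 1 match to the paired GAAA motif, at -82 to -73, and none of these matches overlapped another. In the windows of Cyba and Nox4, on chromosomes 8 and 7, neither string of letters occurred. Of 32851 promoter windows of 280 bases, 3.3% held the paired GAAA motif at least once and 0.21% held it 2 or more times, while 26.0% held GAGGAA. A match is a description of the letters only.

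The membrane subunits went apart. Cybb, the catalytic chain, lies on chromosome X at 9435252 to 9487771 (ENSMUSG00000015340, minus strand). Its read counts were 12270, 12925 and 8792 in the young and 7843, 6187 and 6525 in the old libraries, here and throughout in replicate order 1, 2, 3. Scaled, this was 350, 366 and 261 CPM in young and 179, 161 and 181 CPM in old libraries. The lowest young library, replicate 3, still lay above the highest old one, so the ages did not overlap. Young libraries averaged 326 ± 56.3 and old ones 174 ± 11.3 CPM, which is -0.91 on the log2 scale (SE 0.14, adjusted p = 0.00762). The call held on leaving out each library (adjusted p from 0.000443 to 0.0448), with a log2 fold change of -1.04 without young replicate 3.

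Cyba, the partner that stabilises gp91phox in the membrane and also serves Nox4, lies on chromosome 8 at 122424776 to 122432930 (ENSMUSG00000006519). It stood at 507, 577 and 382 CPM in young and 475, 463 and 445 CPM in old libraries. The old libraries fell between the young ones, so the ages overlapped. Its log2 fold change of -0.08 with SE 0.15 did not pass (adjusted p = 0.800), and the sign turned without young replicate 2 (0.05). The 95% interval of the log2 fold change, from its SE and t at the 4 residual degrees of freedom, was -0.49 to 0.32. The quasi-likelihood test also draws on the spread of other genes, so intervals given here are wider than its p-values imply. Those of Ncf4 and Rac2 below include 0, though their unadjusted p in that test was 0.0443 and 0.0354. Without young replicate 3 the log2 fold change was -0.23 (adjusted p = 0.0742).

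The cytosolic subunits also differed from each other. Ncf1 encodes p47phox, the organizer that is phosphorylated when the oxidase is switched on. It lies on chromosome 5 at 134220053 to 134229625 (ENSMUSG00000015950) and shares 11.1% of its exon length with Gtf2ird2 on the opposite strand. It stood at 126, 136 and 118 CPM in young and 61.7, 62.2 and 64.2 CPM in old libraries. All 3 old libraries lay far below the lowest young one. Young libraries averaged 127 ± 8.90 and old ones 62.7 ± 1.33 CPM, or -1.01 on the log2 scale (SE 0.08, adjusted p = 0.000841), and the call held without each library (adjusted p up to 0.00942). Without young replicate 3 the log2 fold change was -1.06. Gtf2ird2 itself was at 11.9 ± 0.891 CPM in the young and 9.16 ± 1.58 CPM in the old libraries. The difference between the age means of Ncf1 was 63.8 CPM, and the part of shared reads in it was not tested.

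Ncf4 encodes p40phox, which binds a phosphoinositide on phagosomes and keeps the oxidase active there. It lies on chromosome 15 at 78244801 to 78262580 (ENSMUSG00000071715). It stood at 111, 123 and 92.5 CPM in young and 91.6, 90.5 and 88.4 CPM in old libraries. The ages did not overlap, though young replicate 3 lay just above the old libraries. At -0.27 on the log2 scale (SE 0.11) it did not pass (adjusted p = 0.195, 95% interval -0.58 to 0.04). Without young replicate 3 it was -0.37 and passed (adjusted p = 0.0154), so the call depends on that library. The number of all genes called lower went from 731 to 1168 in that fit, so such a gain was not particular to Ncf4.

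Neither GTPase passed the test. Rac1, the ubiquitous Rac protein, was the gene with the most counts among the members and lies on chromosome 5 at 143503634 to 143528036 (ENSMUSG00000001847). It stood at 974.8, 972 and 838 CPM in young and 883, 854 and 866 CPM in old libraries, with overlapping ranges and a log2 fold change of -0.10 (SE 0.09, adjusted p = 0.572, 95% interval -0.34 to 0.14). Without young replicate 3 it was -0.17 (adjusted p = 0.0798). Of its exon length, 51.4% is shared with Daglb on the opposite strand, and Daglb was at 89.7 ± 6.86 CPM in the young and 115 ± 11.02 CPM in the old libraries (adjusted p = 0.0705, or 0.0251 by DESeq2).

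Rac2, the Rac protein of blood cells, lies on chromosome 15 at 78559167 to 78572783 (ENSMUSG00000033220). It stood at 138, 170 and 147 CPM in young and 124, 120 and 136 CPM in old libraries. The highest old library was just under the lowest young one, so the ranges did not overlap. At -0.26 on the log2 scale (SE 0.10) it did not pass (adjusted p = 0.172, 95% interval -0.54 to 0.02). It was -0.28 without young replicate 3 (adjusted p = 0.118).

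Hvcn1, the proton channel that carries out charge left behind by the oxidase, was the member that rose. It lies on chromosome 5 at 122206804 to 122242297 (ENSMUSG00000064267). Its read counts were 2671, 3205 and 3189 in the young and 5560, 4953 and 4852 in the old libraries. After scaling these were 76.2, 90.7 and 94.8 CPM and 127, 129 and 135 CPM. All 3 old libraries lay above the young ones. Young libraries averaged 87.2 ± 9.74 and old ones 130 ± 4.13 CPM, or 0.58 on the log2 scale (SE 0.10, adjusted p = 0.0120). The value was 0.64 without young replicate 3 (adjusted p = 0.00512), but leaving out old replicate 1, 2 or 3 ended the call (adjusted p = 0.0523, 0.0549 and 0.0559).

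Hvcn1 shares 44.2% of its exon length with Tctn1 on the opposite strand, and the library kit does not mark strand. Tctn1, a gene of the primary cilium, was at 28.4 ± 4.45 CPM in young against 38.0 ± 2.01 CPM in old libraries, with a log2 fold change of 0.42 (adjusted p = 0.0882) that passed without young replicate 3 (0.56, adjusted p = 0.00805) and by DESeq2 (adjusted p = 0.0358). The difference between the age means was 9.60 CPM for Tctn1 and 42.8 CPM for Hvcn1. How reads in the shared part were counted is not given in the sources used here, and its part in the Hvcn1 result was not tested. B cells express Hvcn1 too, and of 8 B-cell markers 7 were tested, 5 rose and none fell (edgeR, with all 7 higher at an unadjusted p under 0.05 and by DESeq2, 5 by limma-voom). The number that rose was 2 with the replicate block, and without young replicate 1 or any old replicate, and 4 without young replicate 2 or 3. Their summed level was 10.99 to 13.1 CPM in the young and 30.03 to 41.1 CPM in the old libraries, no marker of the list was at 0 in every library, and the defining marker Pax5 had 0 counts in all young libraries and 2, 4 and 0 in old ones. The part of these cells in the Hvcn1 result was not tested.

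Nox4 was the least abundant member. It lies on chromosome 7 at 87246096 to 87398710 (ENSMUSG00000030562) and was covered by 303, 274 and 200 reads in the young and 332, 283 and 184 in the old libraries. In CPM that is 8.65, 7.75 and 5.94 in young and 7.58, 7.35 and 5.11 in old libraries, and replicate 3 was the lowest of either age. On the log2 scale the difference was -0.16 (SE 0.22, adjusted p = 0.740, 95% interval -0.76 to 0.44), -0.29 without young replicate 3 and 0.002 without old replicate 3. The stromal markers moved unevenly in the same libraries, with 1 of 10 higher and 2 lower, and 0 lower without old replicate 1, 1 lower without young replicate 1 or old replicate 2, and 2 higher and 3 lower without young replicate 3. DESeq2 called 2 higher and 5 lower, the same numbers as at an unadjusted p under 0.05 in edgeR, and limma-voom 1 higher and 2 lower. The median log2 fold change of these markers was -0.77.

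**Figure D1:**
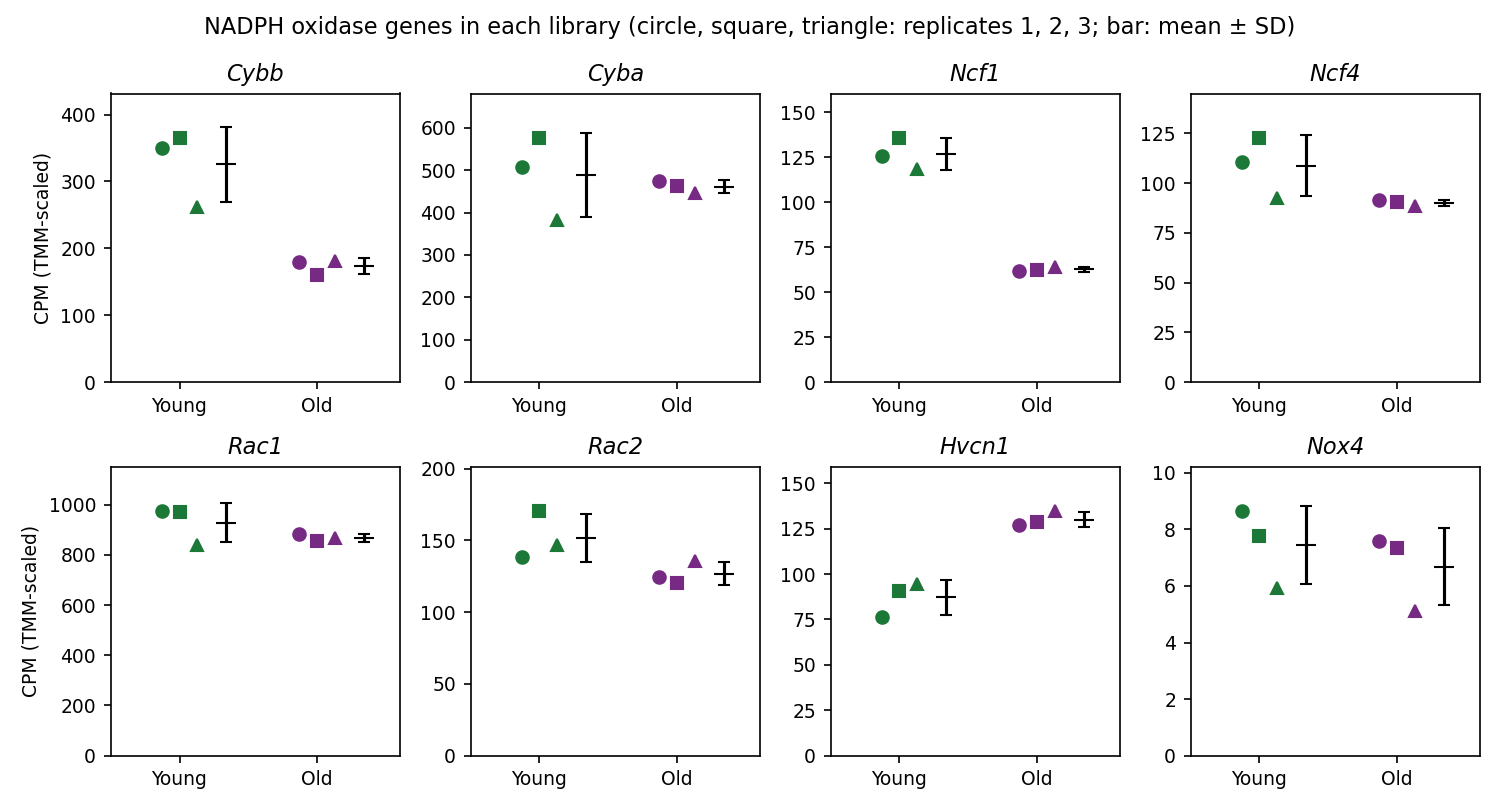
Each panel plots the TMM-scaled CPM of a gene (y axis, from 0) in the 3 young (green) and 3 old (purple) libraries, with the mean ± SD as a bar beside each age. Cybb and Ncf1 are lower in all old libraries, Hvcn1 is higher in all of them, and the ages overlap for Cyba, Rac1 and Nox4.

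The ages did not overlap for 5 of the 8 members (62.5%), beside 30.2% of all tested genes. Of these, 4 had old libraries entirely below the young ones (Cybb, Ncf1, Ncf4, Rac2), where 14.3% of all tested genes did, and 1 had them entirely above (Hvcn1), where 15.9% did. Of the 8 log2 fold changes, 7 were negative, and those of Cyba and Nox4 turned positive without young replicate 2 and old replicate 3. The median over all genes tested was -0.01, and the share of all genes with a negative value was not counted. At an unadjusted p under 0.05 there were 4 lower members and 1 higher. The share of all genes at that cut was not counted, so these numbers cannot be set against it. DESeq2 and limma-voom each called 2 members lower and 1 higher. Of the 15567 genes tested, DESeq2 called 1137 lower and 1331 higher, and limma-voom 709 lower and 943 higher.

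**Figure D2:**
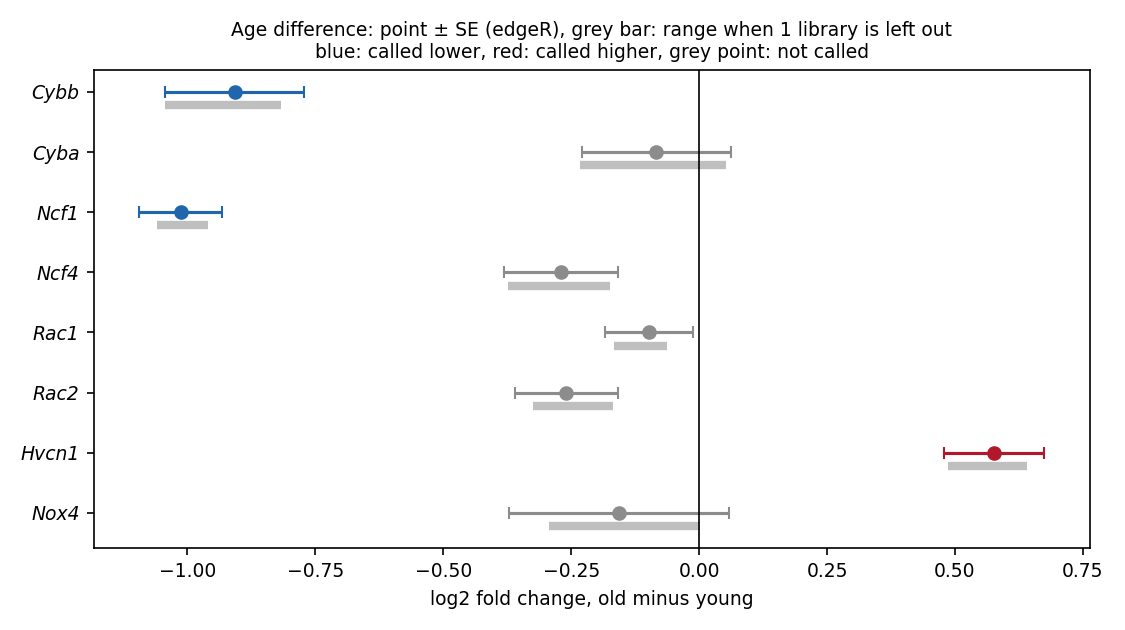
Points give the log2 fold change of each gene, old minus young, with its SE as a bar, and the grey band under each gives the range over the 6 fits that leave out 1 library. Ncf1 lies at -1.01 and Cybb at -0.91, with bands that stay below -0.8, Hvcn1 lies at 0.58, and the bands of Cyba and Nox4 reach past 0.

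Levels of different genes were compared as CPM per kilobase of exon length. In young libraries the order was Cyba (470 ± 95.2), Rac1 (206 ± 17.4), Cybb (56.1 ± 9.70), Ncf4 (53.8 ± 7.60), Rac2 (48.9 ± 5.398), Ncf1 (34.6 ± 2.43), Hvcn1 (24.5 ± 2.73) and Nox4 (0.879 ± 0.163). Cybb, Ncf4 and Rac2 did not differ beyond their spread there. In old libraries the order was Cyba (444 ± 14.3), Rac1 (193 ± 3.19), Ncf4 (44.6 ± 0.794), Rac2 (40.8 ± 2.604), Hvcn1 (36.5 ± 1.16), Cybb (29.9 ± 1.94), Ncf1 (17.1 ± 0.363) and Nox4 (0.788 ± 0.161). Ncf4 and Rac2 differed there by little more than their spread. On this scale the catalytic chain stood with Ncf4 and Rac2 in young libraries and below both in old ones, and Hvcn1 moved from below Ncf1 to above Cybb. The lengths count every annotated exon, and reads of Rac1 and Hvcn1 in exons shared with neighbours make their levels less certain.

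**Figure D3:**
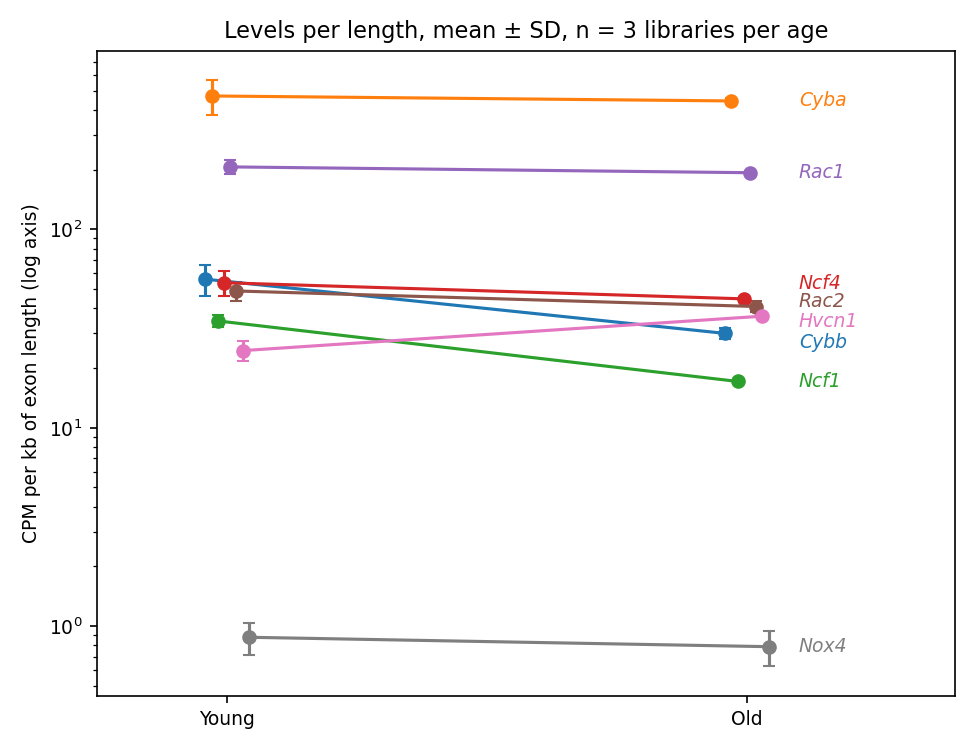
Lines join the mean level of each gene in young and old libraries, as CPM per kilobase of exon length on a log axis, with SD bars over 3 libraries per age. Cybb goes from 56.1 to 29.9 and crosses Ncf4, Rac2 and Hvcn1, while Cyba stays highest and Nox4 lowest.

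Ratios between members within a library do not depend on how libraries are scaled. The count ratio of Cybb to Cyba was 0.691, 0.634 and 0.685 in young and 0.377, 0.347 and 0.407 in old libraries. The membrane partners thus stood in a different proportion in every old library than in any young one (log2 difference -0.83, and -0.82 without young replicate 3). The ratio of Ncf4 to Cybb was 0.316, 0.336 and 0.354 in young and 0.512, 0.563 and 0.488 in old libraries, again without overlap (log2 difference 0.63, and 0.67 without young replicate 3). Nox4 to Cybb went from 0.0229 ± 0.00175 to 0.0388 ± 0.00930 (log2 difference 0.73, also without young replicate 3), with old replicate 3 nearest to the young libraries at 0.0282. Rac2 to Rac1 was 0.164 ± 0.0193 and 0.146 ± 0.00930, with overlapping ranges (log2 difference -0.16, and -0.11 without young replicate 3). An exact two-sided permutation test gave p = 0.1 for each of the ratios to Cyba or Cybb and p = 0.2 for Rac2 to Rac1, where 0.1 is the smallest p that 3 against 3 libraries allow (adjusted over the 4 ratios, 0.133 and 0.2). None can pass 0.05 in this design. All ratios but Rac2 to Rac1 contain Cybb, so they are not separate from its lower level in old libraries.

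Members were also set against genes that leukocytes share. Of 12 leukocyte genes 4 fell, none rose and 8 did not pass (median log2 fold change -0.41, with 10 lower and none higher at an unadjusted p under 0.05, and 9 and 0 by DESeq2, 4 and 0 by limma-voom). The number that fell was 1 without any of the old replicates, 2 without young replicate 2 and 8 without young replicate 3. Their summed level was 3051 to 3550 CPM in the young and 2558 to 2701 CPM in the old libraries. Per 1000 counts of these genes, Cybb stood at 115, 103 and 81.2 in the young and 66.3, 60.8 and 70.8 in the old libraries. Ncf1 stood at 41.2, 38.3 and 36.7 in the young and 22.9, 23.5 and 25.1 in the old libraries. Neither gene's ages overlapped on this scale, with log2 differences of -0.58 and -0.70, and -0.72 and -0.74 without young replicate 3. Hvcn1 went from 26.7 ± 2.44 to 49.4 ± 2.93, a log2 difference of 0.89, or 0.97 without young replicate 3.

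Cyba, on the same scale, went from 149 ± 26.5 to 175 ± 0.885 (log2 difference 0.25) and Rac1 from 285 ± 30.9 to 329 ± 7.97 (0.22), both without overlap. Young replicate 3 was the lowest library for both, Cyba standing at 166, 162.5 and 118.6 in the young libraries, and without it the log2 differences were 0.09 for Cyba and 0.16 for Rac1. Ncf4 was at 33.2 ± 3.97 and 34.2 ± 0.330, Rac2 at 46.3 ± 1.504 and 48.2 ± 4.24 and Nox4 at 2.29 ± 0.501 and 2.53 ± 0.459, all 3 with overlapping ranges. The log2 differences of Ncf4 and Rac2 were 0.05 each. That of Ncf4 was -0.051 without young replicate 3, and that of Rac2 was 0.043 without young replicate 3 and -0.017 without old replicate 3. Nox4 differed by 0.15, or 0.006 without young replicate 3. The exact permutation p was 0.1, the smallest possible, for Cybb, Cyba, Ncf1, Rac1 and Hvcn1 (0.16 adjusted over the 8 members) and from 0.6 to 1 for the others.

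**Figure D4:**
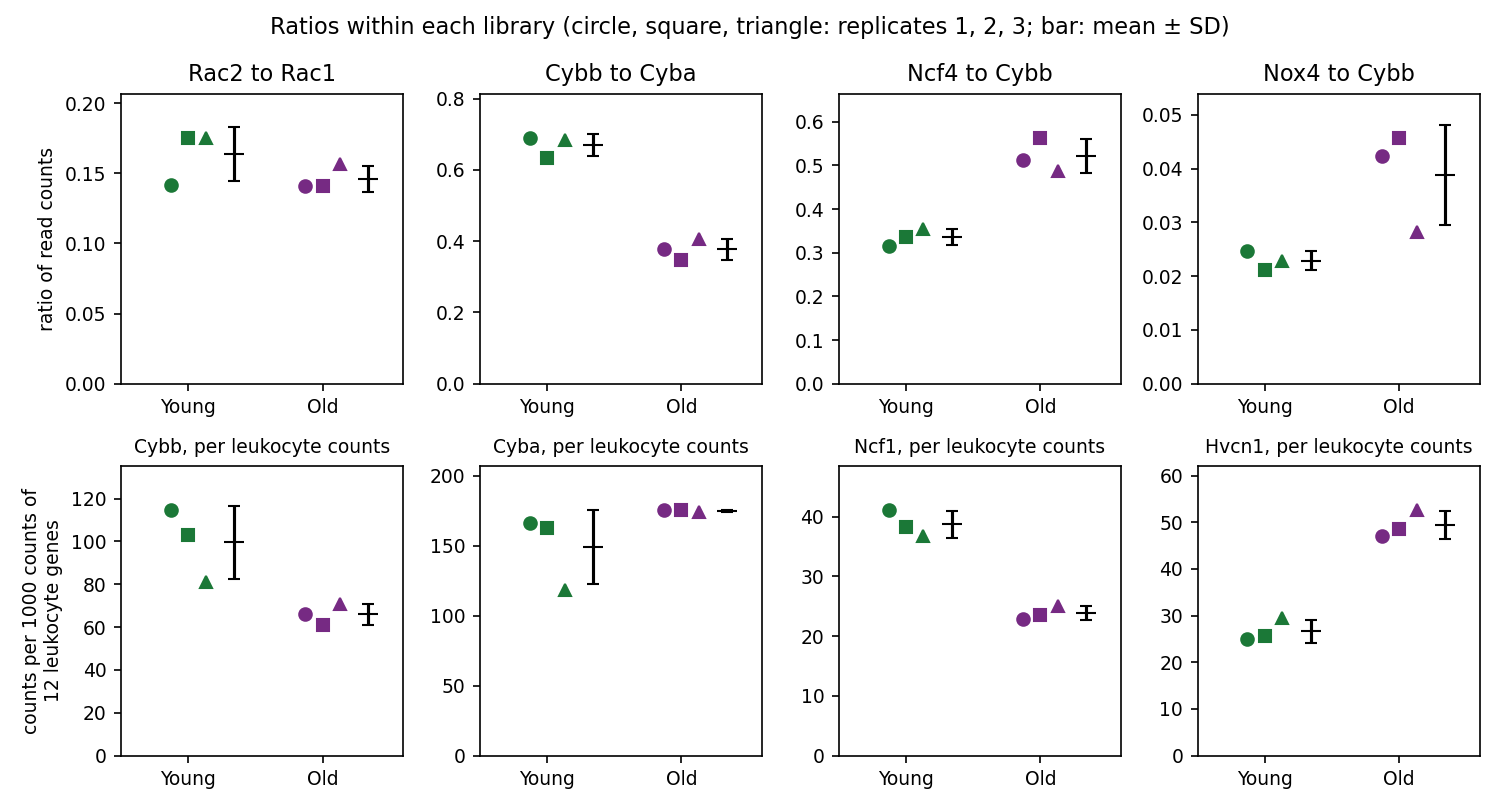
The upper panels plot ratios of read counts between pairs of members in each young (green) and old (purple) library, and the lower panels plot counts of a member per 1000 counts of 12 leukocyte genes, with mean ± SD as bars. Cybb to Cyba, and Cybb and Ncf1 per leukocyte counts, are lower in all old libraries, and Hvcn1 per leukocyte counts is higher in all of them.

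Markers of the cells that carry the oxidase moved in the same libraries. Of 12 macrophage markers 10 fell (8 to 10 on leaving out a library), 1 rose and 1 did not pass, and the rise passed on leaving out young or old replicate 3 but no other library. Their summed level was 3483 to 3831 CPM in the young and 2000 to 2289 CPM in the old libraries. The median log2 fold change of that list was -0.94, beside -0.91 for Cybb and -1.01 for Ncf1. Of 13 neutrophil markers 2 fell, 1 rose and 10 did not pass, with sums of 1402 to 2408 CPM in the young and 971 to 1779 CPM in the old libraries, so the ranges overlapped. The number of these that fell was 1 without old replicate 1 or 2 and 3 without young replicate 3, or 4 by DESeq2. Of 4 eosinophil markers tested 2 rose and none fell (edgeR, likewise by DESeq2 and limma-voom, with none lower at an unadjusted p under 0.05). The number that rose was 0 without old replicate 1, 2 or 3, 1 without young replicate 2 and with the replicate block, and 4 without young replicate 1. Their sums were 0.594 to 28.9 and 26.7 to 42.3 CPM, where Prg2 and Epx had 0 counts in young replicates 2 and 3. No marker of these 3 lists was at 0 in every library. The part of cell composition in the results on Cybb and Ncf1 was not tested.

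Among the other oxidases and partner proteins none of the 7 tested genes of 11 passed with edgeR (1 at an unadjusted p under 0.05, 1 lower by DESeq2, 0 by limma-voom). Poldip2, a partner of Nox4, was at 131 ± 9.003 and 134 ± 6.77 CPM. Cybc1, the chaperone that gp91phox and p22phox need to mature and which was named after its values were seen, was at 75.2 ± 5.97 and 66.7 ± 4.71 CPM (adjusted p = 0.346). Nox3 and Duoxa2 had 0 counts in every library.

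Regulators of Rac and Rap moved in both directions. Of 12 tested, 5 fell, 1 rose and 6 did not pass (median log2 fold change -0.305), and the number that fell was 1, 1 and 2 without old replicate 1, 2 and 3 and 3 without young replicate 1 or 2. Arhgap25, which switches Rac off in phagocytes, rose by 0.82 on the log2 scale, from 40.2 ± 2.22 to 70.9 ± 1.79 CPM (adjusted p = 0.00163), and held without each library. Arhgdib went from 283 ± 28.9 to 162 ± 21.8 CPM (adjusted p = 0.00808), a call that also held without each library. Vav1, an exchange factor that loads Rac with GTP, went from 101 ± 6.93 to 70.8 ± 2.73 CPM (adjusted p = 0.0105), which no longer passed on leaving out either of old replicates 1 and 2 (adjusted p at most 0.0583). The other lower genes, named after their values were seen, were the Rac exchange factors Dock2 and Prex1 and the Rac inhibitor Arhgap15. None of these 3 passed without old replicate 1, 2 or 3 (adjusted p from 0.0502 to 0.108), nor did Dock2 without young replicate 2 (0.0551), Prex1 without young replicate 1 (0.0885) or Arhgap15 without young replicate 1 or 2 (0.116 and 0.0935).

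Of 12 kinases and lipid enzymes that act on the oxidase or its membrane, 3 fell, none rose and 9 did not pass (with none higher at an unadjusted p under 0.05, by DESeq2 or by limma-voom). The number that fell was 1 without old replicate 1 and 5 without young replicate 3. Prkcb, a protein kinase C that phosphorylates p47phox, was at 41.0 ± 1.71 CPM in young and fell to 26.6 ± 1.44 CPM (log2 -0.62, adjusted p = 0.00659), and held without each library. The phosphoinositide 3-kinase genes Pik3cg and Pik3cd had log2 fold changes of -0.63 each (adjusted p = 0.0116 and 0.0147). Pik3cg no longer passed once old replicate 1 was left out (adjusted p = 0.0504), nor Pik3cd once young replicate 2, old replicate 1 or old replicate 2 was (adjusted p at most 0.0644). Of 4 genes of restraint and of oxidase-dependent phagocytosis, Nrros, a negative regulator of reactive oxygen in phagocytes, fell from 275 ± 32.9 to 191 ± 25.7 CPM (adjusted p = 0.0458), but of the 6 fits with a library left out it passed in 1, that without young replicate 3.

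Of 6 transcription factors known to act on Cybb, 3 fell, 1 rose and 2 did not pass. The number that fell was 0 without old replicate 1 and 1 without young replicate 2 or old replicate 2 or 3, and 1 with the replicate block. Spi1, which encodes PU.1, went from 142 ± 9.49 to 110 ± 1.42 CPM (log2 fold change -0.37, adjusted p = 0.0261), which did not pass on leaving out young replicate 2 or any of the old ones (adjusted p at most 0.113). Irf8, named after its values were seen, also fell (adjusted p = 0.0483), but of the 6 fits with a library left out passed in that without young replicate 3 alone (0.0032). Cebpa, a myeloid factor, rose from 60.7 ± 5.15 to 129 ± 1.87 CPM (log2 fold change 1.09, adjusted p = 0.000787) and held without each library.

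The genes that supply NADPH did not pass: of 9 tested none was called by edgeR or limma-voom, while 2 were higher at an unadjusted p under 0.05 and 1 by DESeq2. Pgd, an enzyme of the pentose phosphate pathway, stood at 457 ± 15.1 and 459 ± 1.69 CPM. G6pdx, the enzyme that opens that pathway, was at 339 ± 39.4 CPM in the young and 432 ± 1.42 CPM in the old libraries (log2 fold change 0.35, adjusted p = 0.0680), shares 13.6% of its exon length with Ikbkg, and passed by DESeq2 (adjusted p = 0.0196) and, of the edgeR fits with a library left out, in that without young replicate 3 (adjusted p = 0.0183). Over the 6 lists together, 12 of 50 tested genes fell, 2 rose and 36 did not pass, with a median log2 fold change of -0.15. Of all tested genes, 4.7% fell and 5.84% rose. The lists, too, were chosen with earlier results of these data known. On leaving out old replicate 1, 2 or 3 the number of list genes that fell was 2, 4 or 6. On leaving out young replicate 1, 2 or 3 it was 8, 6 or 16.

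The genes whose pattern over the 6 libraries was most like that of Cybb were sought by the root mean square difference of centred log2 CPM, among tested genes with a mean of at least 5 CPM. They were Pycard, which encodes the inflammasome adaptor ASC (0.061), Epsti1 (0.071), Dusp22 (0.073), Themis2 (0.082) and Inpp4b (0.098). Each was lower in old libraries, with log2 fold changes from -1.01 to -0.81, which follows from their choice by likeness to Cybb. Of the exon length of Pycard, 12.8% is shared with another gene. Those most like Nox4 were Ippk (0.055), Rai1 (0.065), Slc35a3 (0.074), H3f3a (0.075) and AU022252 (0.079). None of these passed (adjusted p from 0.5496 to 0.8278), and they were likewise chosen for likeness to a gene that did not pass.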

How the data were processed

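Per the labels' protocols, each library came from 10000 cells by low-input amplification without strand marking and was read as 100 bp pairs. The authors deposited raw read counts for each Ensembl gene. The submitters' processing notes name the aligners HISAT2 2.1.0 and STAR 2.6.1a, StringTie 1.3.4d, the trimmers Trim Galore 0.50 and cutadapt 1.18, and the mm10 build. The counting tool, annotation and strand setting were not given in the sources used here. Libraries were grouped by title.

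Symbols matched 37607 of the 39017 identifiers, and the rest held 0.339% to 0.398% of counts. Positions and exon overlaps come from GENCODE M21 (GRCm38). In R 4.3.3, edgeR 4.0.16 was run with filterByExpr, TMM and the robust quasi-likelihood test over all genes, with Benjamini-Hochberg adjustment. The SE was taken as the size of the log2 fold change over the root of F. The procedure was tested on simulated data. Ratios used counts plus 0.5 and exact permutation tests.

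The alternatives were DESeq2 1.42.0 size factors and its test, upper-quartile factors, TMM without the 50 most abundant genes, limma-voom (limma 3.58.1), a non-robust fit, a replicate block, no filter, a minimum of 50 counts in 3 libraries, and omission of each library. The members and lists were chosen with earlier results of these data known. Named from each pathway list were the 3 genes with the smallest p among those past the threshold, or, with none past it, the 2 with most counts. Not every gene so named is reported here. Within each age, every pair of replicates differed beyond sampling noise. The lists of T and NK cells (0 of 5 tested genes called by edgeR, DESeq2 or limma-voom, 1 at an unadjusted p under 0.05), osteoclasts (2 of 6 higher), osteoblasts (3 of 6 lower), smooth muscle (3 of 5 higher, 0 without old replicate 1 or 2, 1 without young replicate 1 or 2 or old replicate 3) and endothelium (0 of 6 by edgeR and limma-voom, 1 lower by DESeq2 and without young replicate 1, 2 at an unadjusted p under 0.05) were not used further.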

Additional observations from a re-analysis of the deposited data

How the results depend on the processing

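Under the 9 settings that keep all libraries, each of the 8 members kept its direction and its side of the threshold, and the number of members called stayed at 2 lower and 1 higher. The log2 fold change of Cybb lay between -0.91 and -0.90, that of Ncf1 at -1.01 and that of Hvcn1 at 0.58 in these settings. DESeq2 called 1137 genes lower over the whole table, against 731 with edgeR. Leaving out 1 library moved the log2 fold change of Hvcn1 between 0.487 and 0.641 and that of Ncf4 between -0.373 and -0.174. The number of members called higher was then 0 to 1, the number of all genes called higher 418 to 1459 and lower 294 to 1168, and the number of pathway genes called lower 2 to 16, from a main count of 12. The lowest counts of all genes and of pathway genes came without an old library and the highest without young replicate 3. Direction turned for Cyba without young replicate 2 (range -0.233 to 0.052), for Nox4 without old replicate 3 (-0.294 to 0.002), and per leukocyte counts for Ncf4 without young replicate 3 (-0.051 to 0.118) and Rac2 without old replicate 3 (-0.017 to 0.094), none of which passed a test. Each of these fits had 1 library fewer, and the cause of the shifts was not tested. The labels number the replicates alike in both ages. Over genes, the deviations of same-numbered libraries correlated at 0.129, 0.034 and 0.158, and those of the other combinations at -0.17 to 0.078. The numbers were not taken as pairs in the main fit, and whether they are pairs is not stated. With the replicate block, 711 genes were higher, 575 lower and 9 pathway genes lower, the calls of the 8 members were as before, and young replicate 2 did not correlate best with its own number. Exact tests of 3 against 3 libraries cannot go below 0.1, which limits every ratio. Nox4, with 184 to 332 counts per library, had the fewest counts and the largest SE of the 8 members.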

Other observations

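Mapk14, which encodes the stress kinase p38 alpha and is among the kinases of the oxidase, had 5262 and 5318 counts in young replicates 1 and 2 but 1589 in young replicate 3, and 2644, 2603 and 2051 in old replicates 1, 2 and 3. Its log2 fold change of -0.91 did not pass (SE 0.39, adjusted p = 0.217), and without young replicate 3 it was -1.29 and passed (adjusted p = 0.000437). Noxa1, the activator of the Nox1 oxidase, had 0 counts in each young library and 7, 0 and 3 in old replicates 1, 2 and 3. Among neutrophil genes, Mmp8 rose from 16.9 ± 3.10 to 44.9 ± 5.10 CPM while Prtn3 and Csf3r fell, named after their values were seen, and Prtn3 did not pass without old replicate 1 or 2 (adjusted p = 0.0562 and 0.0546). Among eosinophil genes, Prg2 had 696 counts in young replicate 1, 0 in young replicates 2 and 3, and 678 to 1275 in old libraries.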
